A study of Mus musculus with 2 samples.

Results

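The genes described here are those of the ATF4 stress response and of protein synthesis from amino acids: 15 genes of the integrated stress response (7 transcription factors and 8 targets or feedback genes), 2 eIF2α kinases, 6 amino acid transporters and 17 cytosolic tRNA synthetases. They were chosen by name, with earlier results of these data known. All 40 were found among the 13056 rows with an Entrez gene identifier in the authors' table. CD4+ T cells came from C57BL/6 mice of wild type genotype, 6 to 8 weeks old, and spent 48 h in Th17 (T helper 17) differentiation culture. The antigen presenting cells (APCs) in the culture carried an OX40L transgene (OX40L-TG-APC library) or were wild type (WT-APC library). OX40L is the ligand of the costimulatory T cell receptor OX40. Total RNA of the collected T cells was sequenced, and there was 1 library for each kind of APC. The promoter of the transgene and the kind of cell used as APC are not given in the sources used here. With 1 library on each side, every difference below compares 2 libraries, has no replicate check and carries no test.

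Cells that lack an amino acid, or whose endoplasmic reticulum is loaded with unfolded protein, phosphorylate the translation factor eIF2α. General translation then falls while the transcription factor ATF4 is made more efficiently from its existing mRNA. ATF4 binds, often with a C/EBP partner, to a short element (the C/EBP-ATF response element) in genes that import amino acids, make them and charge them onto tRNA. Activated T cells depend on amino acid import to grow and divide. An mRNA level does not report the translation of Atf4, nor the phosphorylation of eIF2α.

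The promoters below belong to the members with the largest differences among those that hold a searched element, so each holds one by selection. Gpt2, Cebpb, Sesn2 and Ddit3 had larger log2 changes than Gars, but their promoters held no searched element and are not shown. Eif4ebp1, for which no promoter was found, and Slc7a5, for which no searched element was found, also had larger changes and are not shown. Each printed promoter runs 5′ to 3′ from 250 bases before to 30 bases after the annotated start (RefSeq, build GRCm38.p6), with the element in capitals. The element was searched on both strands as TGATGNAA.
Atf3 (chr1:191183304-191183583, minus strand): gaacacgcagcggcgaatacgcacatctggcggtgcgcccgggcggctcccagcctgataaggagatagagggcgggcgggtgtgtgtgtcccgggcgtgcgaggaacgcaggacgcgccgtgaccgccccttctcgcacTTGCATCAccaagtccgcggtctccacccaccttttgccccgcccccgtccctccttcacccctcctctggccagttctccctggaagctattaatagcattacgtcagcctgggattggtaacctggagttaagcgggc
Asns (chr6:7693180-7693459, minus strand): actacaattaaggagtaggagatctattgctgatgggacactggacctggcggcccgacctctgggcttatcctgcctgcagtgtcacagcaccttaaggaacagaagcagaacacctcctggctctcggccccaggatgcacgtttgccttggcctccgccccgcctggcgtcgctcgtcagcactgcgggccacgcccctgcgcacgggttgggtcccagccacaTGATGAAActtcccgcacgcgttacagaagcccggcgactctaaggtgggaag
Trib3 (chr2:152344031-152344310, minus strand): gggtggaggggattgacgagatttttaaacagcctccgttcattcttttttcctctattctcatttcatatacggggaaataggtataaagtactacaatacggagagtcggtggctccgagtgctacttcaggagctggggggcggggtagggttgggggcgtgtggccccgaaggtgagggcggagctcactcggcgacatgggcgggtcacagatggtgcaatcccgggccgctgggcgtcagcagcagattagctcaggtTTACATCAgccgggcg
Vldlr (chr19:27216770-27217049, plus strand): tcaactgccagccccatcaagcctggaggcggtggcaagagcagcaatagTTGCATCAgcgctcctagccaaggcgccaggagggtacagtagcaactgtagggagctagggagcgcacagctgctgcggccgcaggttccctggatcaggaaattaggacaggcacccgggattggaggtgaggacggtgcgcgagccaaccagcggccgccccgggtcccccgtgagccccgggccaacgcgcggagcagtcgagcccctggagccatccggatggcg
Chac1 (chr2:119350992-119351271, plus strand): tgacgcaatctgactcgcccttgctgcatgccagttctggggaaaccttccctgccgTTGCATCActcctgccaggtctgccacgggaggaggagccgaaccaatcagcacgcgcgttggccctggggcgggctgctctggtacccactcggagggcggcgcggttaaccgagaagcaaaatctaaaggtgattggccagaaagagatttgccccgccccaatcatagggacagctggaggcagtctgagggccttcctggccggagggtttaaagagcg
Slc1a4 (chr11:20332684-20332963, minus strand): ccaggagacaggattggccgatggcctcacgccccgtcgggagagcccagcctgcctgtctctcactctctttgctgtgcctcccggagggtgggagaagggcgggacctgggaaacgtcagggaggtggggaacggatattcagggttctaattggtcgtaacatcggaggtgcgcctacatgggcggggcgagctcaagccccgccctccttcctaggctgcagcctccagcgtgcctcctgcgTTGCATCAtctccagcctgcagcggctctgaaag
Gars (chr6:55037751-55038030, plus strand): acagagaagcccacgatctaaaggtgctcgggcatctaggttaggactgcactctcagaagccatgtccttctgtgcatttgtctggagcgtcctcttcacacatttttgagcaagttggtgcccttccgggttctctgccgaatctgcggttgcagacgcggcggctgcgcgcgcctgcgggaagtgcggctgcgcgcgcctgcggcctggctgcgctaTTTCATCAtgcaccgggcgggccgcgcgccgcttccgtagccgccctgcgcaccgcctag
In Atf3, Chac1, Vldlr and Slc1a4 the match was TTGCATCA, with its first base at position -110, -193, -200 and -4 from the start. In Asns it was TGATGAAA at position -23, in Trib3 TTACATCA at position 15 and in Gars TTTCATCA at position -30. Promoters were found for 30 of the 40 genes, and 12 of these 30 held the element between 250 bases before and 50 after a start, against 1219 of 27025 genes in the whole promoter table (4.51%). The 12 were Atf3, Nupr1, Trib3, Asns, Chac1, Vldlr, Slc1a4, Aars, Gars, Iars, Tars and Yars. Of the members at least 2-fold higher in the OX40L-TG-APC library on the log2(FPKM + 1) scale explained below, all 5 with a promoter in the table held it. Of the 25 other members 7 held it (28.0%). This split depends on the scale. By a plain FPKM ratio of at least 2, Cebpb, Sesn2 and Gpt2 join the higher members, and their promoters held no such element. Nupr1 and Slc1a4, which held it, join as well. Several of the 12 are known as ATF4 targets through such an element, so these shares are a description and not independent of how the genes came to be listed. The cAMP response element TGACGTCA was found in 1 member, Ppp1r15a, and in 2.03% of all genes of the table. The ER stress element (CCAAT, 9 bases of any kind, then CCACG) was in no member promoter and in 0.137% of all genes, and it was in 4 of the 9 promoters of genes driven by ATF6 and XBP1. No member promoter held 2 kinds of element.

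The values are FPKM, fragment numbers scaled by transcript length and by library size, as the authors deposited them. Changes are given as the FPKM ratio, OX40L-TG-APC over WT-APC, and as the log2 of the same ratio after 1 was added to both values, which shrinks the differences of low genes. The steps between low FPKM values correspond to about 2.94e+07 fragments in the OX40L-TG-APC library and 2.57e+07 in the WT-APC library. Beside a ratio stands its 95% interval (exact, Clopper-Pearson), computed from the approximate fragment numbers and covering counting error only. Over all genes that reached 1 FPKM in a library the median ratio was 1.09, so a member at that ratio was level with the typical gene. Tnfsf4, the gene of OX40L itself, stood at 2.14 FPKM in the OX40L-TG-APC library and 2.70 FPKM in the WT-APC library.

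The cultures also differed in markers of other cells. The 7 T cell markers summed to 1705 FPKM in the OX40L-TG-APC library and 1601 FPKM in the WT-APC library (ratio 1.06). The defining markers Cd3e and Cd4 were well expressed in both. Of the 7, 6 had the higher FPKM in the OX40L-TG-APC library (background 68.3%). Cd3e had the lower FPKM there, at a ratio of 0.882 (0.841 to 0.926). The 10 B cell markers summed to 22.8 FPKM in the OX40L-TG-APC library and 51.8 FPKM in the WT-APC library, and all 8 that reached 1 FPKM were lower in the OX40L-TG-APC library with intervals below 1 (background 17.3%), with none of the 10 at 0. The 10 myeloid and dendritic cell markers summed to 7.22 FPKM in the OX40L-TG-APC library and 16.4 FPKM in the WT-APC library, where 3 of the 5 that reached 1 FPKM were at least 2-fold lower in the OX40L-TG-APC library (background 1.32%). Cd68, a macrophage marker, was the 1 of these 5 that was not lower, at 2.44 FPKM in the OX40L-TG-APC library and 2.25 FPKM in the WT-APC library, and its interval (0.766 to 1.53) included 1. Clec9a, a dendritic cell marker, was the 1 of the 10 listed at 0 in the OX40L-TG-APC library, and its 0.0249 FPKM in the WT-APC library amounts to less than 1 fragment. Fewer cells of a type and less RNA per cell cannot be told apart in such bulk libraries. The part of these differences in the values of the stress response, transporter and synthetase genes that follow was not tested.

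As a set, these genes were higher in the OX40L-TG-APC library. Since they were listed with earlier results of these data known, the shares that follow are a description. Of the 40 genes, 37 had the higher FPKM there, against 68.3% of all genes (33 genes against 42.3% with the libraries' totals set equal), and 33 had a ratio of at least 1.2, against 31.3% of all genes. The counting interval lay above 1 for 37 genes and below 1 for 2 (background 49.2% and 17.3%), the last 2 being Slc1a5 and Wars. On the log2(FPKM + 1) scale 6 were at least 2-fold higher (background 2.26%) and 0 were at least 2-fold lower (background 1.32%). The 6 were Atf3, Trib3, Asns, Chac1, Vldlr and Eif4ebp1. The median log2 change was 0.38 over the 40 genes and 0.11 over all 10645 genes, whose quartiles were -0.05 and 0.29. The stress response genes lay furthest out, with a median of 1.12 over the 8 targets and 0.57 over the 7 transcription factors. The kinases (0.30), the transporters (0.24) and the synthetases (0.35) lay nearer to the rest of the transcriptome. The count of 6 depends on the scale, since it was 11 with a pseudocount of 0.1 (background 3.80%), 2 with a pseudocount of 5 (background 0.949%) and 3 with the libraries' totals set equal (background 1.59%).

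**Figure D1:**
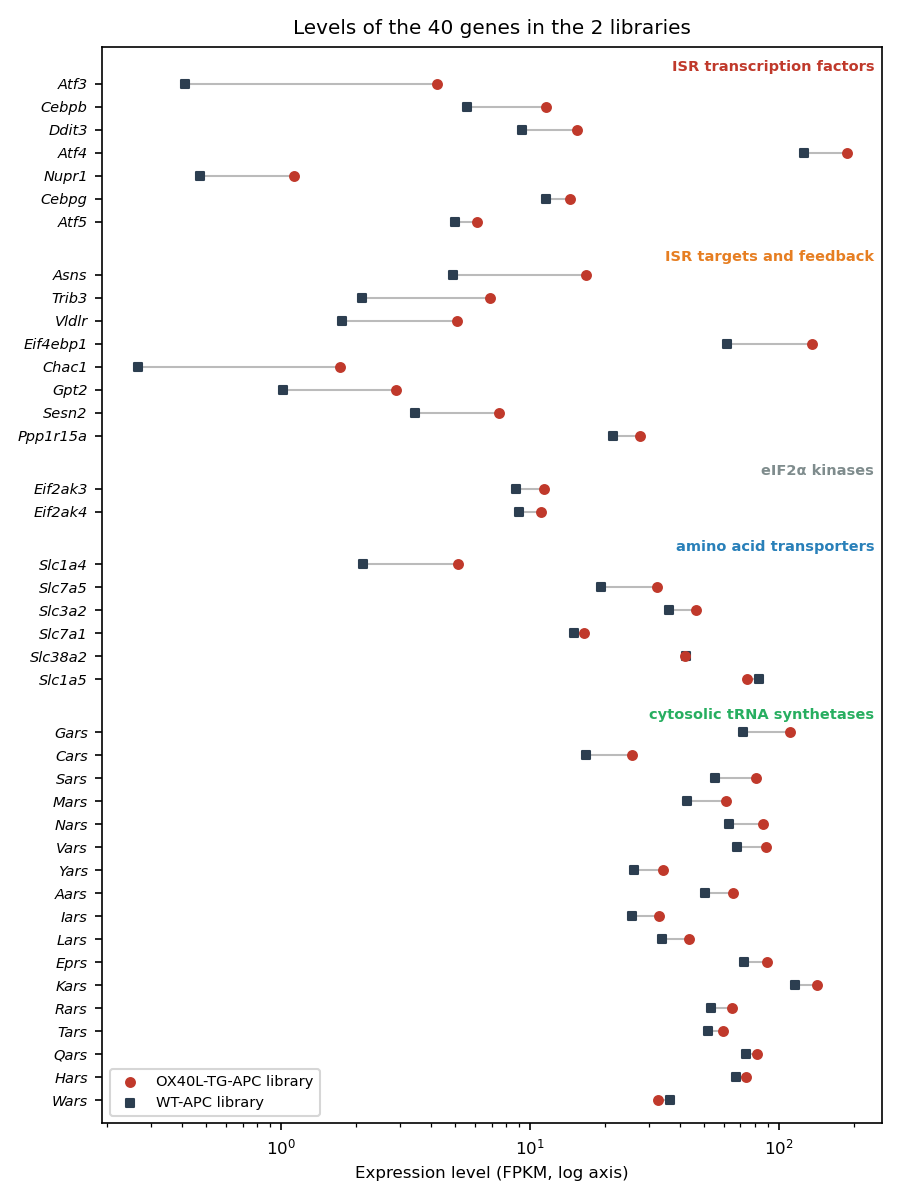
FPKM of each of the 40 genes (log axis) in the OX40L-TG-APC library (red circles) and the WT-APC library (dark squares), 1 value per library, ordered within each subgroup by log2 change. The circle lies to the right of the square in 37 genes, and the gap is widest in low stress response genes such as Atf3, with 4.21 FPKM in the OX40L-TG-APC library and 0.410 FPKM in the WT-APC library.

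All 7 transcription factor genes of the response were higher in the OX40L-TG-APC library (background 68.3%). Atf4, the central regulator (chromosome 15, 80255184 to 80257541), was the most abundant of them at 187 FPKM in the OX40L-TG-APC library and 126 FPKM in the WT-APC library. Its ratio was 1.49 (1.43 to 1.54). Atf3, a stress-induced factor and ATF4 target (chromosome 1, 191170296 to 191183333), was near the bottom of the range in both libraries. It stood at 4.21 FPKM in the OX40L-TG-APC library and 0.410 FPKM in the WT-APC library, a ratio of 10.3 (6.53 to 17.7) with about 227 fragments behind the OX40L-TG-APC value and 19 behind the WT-APC value. Its log2 change of 1.89 was the 39th highest of the 10645 genes.

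Cebpb, which encodes a C/EBP partner of ATF4 (chromosome 2, 167688915 to 167690418), stood at 11.6 FPKM in the OX40L-TG-APC library and 5.58 FPKM in the WT-APC library, a ratio of 2.07 (1.75 to 2.47). Its log2 change of 0.93 fell short of the 2-fold line. The related Cebpg, which also pairs with ATF4, differed less, at 14.4 FPKM in the OX40L-TG-APC library and 11.5 FPKM in the WT-APC library (ratio 1.25, 1.17 to 1.34). Ddit3, which encodes the death-associated factor CHOP, stood at 15.5 FPKM in the OX40L-TG-APC library and 9.29 FPKM in the WT-APC library (ratio 1.66, 1.38 to 2.01). The authors' table prints one locus for Ddit3 and the neighbouring synthetase gene Mars (chromosome 10, 127290793 to 127311786), and the way their overlapping ends were counted is not given in the sources used here. Atf5, a factor of the mitochondrial stress response, stood at 6.14 FPKM in the OX40L-TG-APC library and 4.98 FPKM in the WT-APC library (ratio 1.23, 1.03 to 1.48), at a printed locus that also holds Il4i1, Nup62 and Tbc1d17. Nupr1, a small stress-induced nuclear protein gene, was also low, at 1.13 FPKM in the OX40L-TG-APC library and 0.473 FPKM in the WT-APC library. With about 8 fragments behind the WT-APC value, its ratio of 2.38 had an interval of 1.03 to 6.24.

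The 8 targets and feedback genes were all higher in the OX40L-TG-APC library (background 68.3%), and 5 of them were at least 2-fold higher (background 2.26%). Asns, which encodes asparagine synthetase (chromosome 6, 7675171 to 7693182), had the largest log2 change of the 8, 1.59. It stood at 16.8 FPKM in the OX40L-TG-APC library and 4.91 FPKM in the WT-APC library, a ratio of 3.42 (2.96 to 3.96). Trib3, which encodes a pseudokinase that restrains ATF4 (chromosome 2, 152337425 to 152344060), stood at 6.87 FPKM in the OX40L-TG-APC library and 2.11 FPKM in the WT-APC library, a ratio of 3.26 (2.61 to 4.09). Both hold the C/EBP-ATF element within 30 bases of the start, in the sequences printed above.

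Chac1, which encodes an enzyme that degrades glutathione (chromosome 2, 119351242 to 119354326), had the lowest level of the 8. It stood at 1.73 FPKM in the OX40L-TG-APC library and 0.265 FPKM in the WT-APC library. The ratio of 6.51 had a wide interval (3.37 to 14.2), since about 75 fragments lay behind the OX40L-TG-APC value and 10 behind the WT-APC value, and the log2 change of 1.11 was the one nearest above the 2-fold line. Vldlr, a lipoprotein receptor gene and ATF4 target (chromosome 19, 27217020 to 27266499), stood at 5.08 FPKM in the OX40L-TG-APC library and 1.75 FPKM in the WT-APC library (ratio 2.90, 2.52 to 3.35). Eif4ebp1 encodes the translation repressor 4E-BP1, which mTORC1 inactivates (chromosome 8, 27260327 to 27275656). It was the one abundant gene among the 6, at 136 FPKM in the OX40L-TG-APC library and 61.6 FPKM in the WT-APC library, with a ratio of 2.21 (2.12 to 2.31). Of the 22 members with at least 20 FPKM in the WT-APC library, Eif4ebp1 was the 1 that reached 2-fold (background over genes of any level 2.26%). The share over all genes at that level was not computed.

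Gpt2 and Sesn2 lay just under the 2-fold line, with log2 changes of 0.95 and 0.93. Gpt2, which encodes a mitochondrial alanine aminotransferase, stood at 2.89 FPKM in the OX40L-TG-APC library and 1.02 FPKM in the WT-APC library (ratio 2.84, 2.24 to 3.63). Sesn2, which encodes a leucine sensor that restrains mTORC1, stood at 7.49 FPKM in the OX40L-TG-APC library and 3.45 FPKM in the WT-APC library (ratio 2.17, 1.90 to 2.50). Ppp1r15a encodes GADD34, the subunit that directs a phosphatase to eIF2α and so closes the response. It differed least of the 8, at 27.6 FPKM in the OX40L-TG-APC library and 21.5 FPKM in the WT-APC library (ratio 1.29, 1.196 to 1.39).

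**Figure D2:**
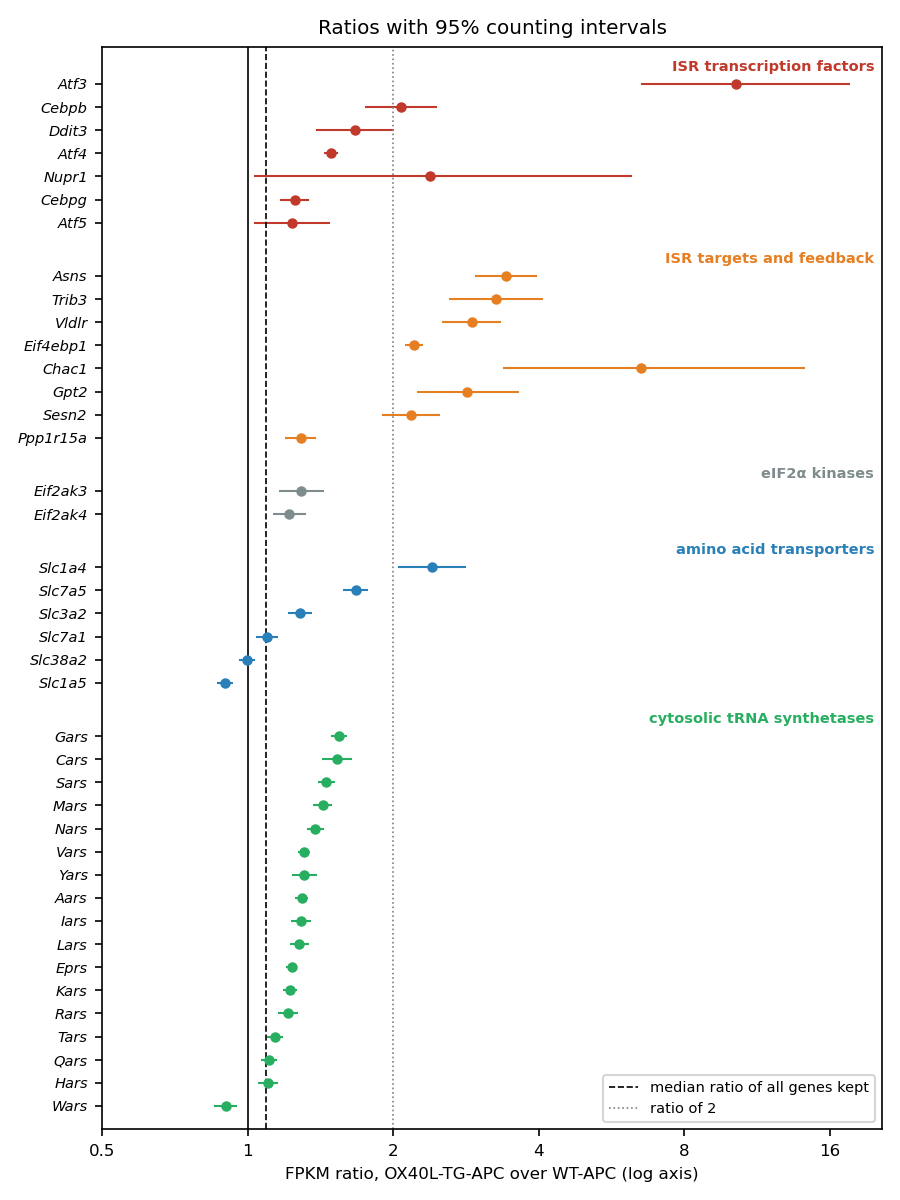
FPKM ratio of each gene, OX40L-TG-APC over WT-APC (log axis), with bars for the 95% counting interval, coloured by subgroup. The solid line marks a ratio of 1, the dashed line the median of all genes (1.09) and the dotted line a ratio of 2. The intervals are wide in the faint genes Atf3, Chac1 and Nupr1 and narrow in the synthetases, of which Wars alone lies below 1 on this scale.

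A plain ratio of at least 2 was reached by 11 of the 40 genes, against 4.08% of all genes. These were mostly genes of low level, where large ratios are commoner. Among genes with 1 to 5 FPKM in the WT-APC library, 6 of the 7 members and 6.59% of the 2320 genes in that range had such a ratio. All 40 members passed the filter at 1 FPKM, 3 of them (Atf3, Chac1 and Nupr1) through their OX40L-TG-APC value alone. Atf3 and Chac1 are among the 6 that were at least 2-fold higher on the log2(FPKM + 1) scale. Since all 40 passed, leaving the filter out could not change that count. It changed the background alone, from 2.26% to 1.85%.

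In the authors' deposited table, which compares the libraries and lists 398 genes, 9 of the 40 members appeared, all with positive log2 ratios. Of all 13056 genes, 1.95% are listed there with a positive log2 ratio (254 genes) and 1.1% with a negative one (144 genes). The 9 were Atf3, Cebpb, Trib3, Asns, Sesn2, Vldlr, Gpt2, Eif4ebp1 and Slc1a4. In the authors' deposited table the log2 ratio of Vldlr was 1.57 with a p-value of 0.00105, and that of Cebpb was 1.08 with a p-value of 0.0483. These p-values rest on 1 library per condition. The authors' log2 ratio is not the measure used elsewhere here. With 1 added to both values, the log2 change was 1.14 for Vldlr and 0.93 for Cebpb.

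Both kinases were a little higher in the OX40L-TG-APC library (background 68.3%). Eif2ak3, which encodes PERK, the kinase that senses unfolded protein in the endoplasmic reticulum, stood at 11.3 FPKM in the OX40L-TG-APC library and 8.79 FPKM in the WT-APC library (ratio 1.29, 1.16 to 1.44). Eif2ak4, which encodes GCN2, the kinase that senses uncharged tRNA, stood at 11.04 FPKM in the OX40L-TG-APC library and 9.05 FPKM in the WT-APC library (ratio 1.22, 1.13 to 1.32). Both kinases were thus at like levels within each library. Among 11 other genes of eIF2, its exchange factor eIF2B and their regulators, 8 had the higher FPKM in the OX40L-TG-APC library (background 68.3%). None was at least 2-fold higher or lower, which at a background of 2.26% and 1.32% says little about 11 genes. Their median log2 change was 0.14. The one with the largest change, Eif2s2, which encodes the beta subunit of eIF2, stood at 28.3 FPKM in the OX40L-TG-APC library and 18.4 FPKM in the WT-APC library.

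The 6 amino acid transporter genes differed among themselves. In the OX40L-TG-APC library 4 were higher, a share near the background of 68.3%. With the libraries' totals set equal 3 were higher (background 42.3%). Slc1a4, which encodes a carrier of alanine, serine and cysteine (chromosome 11, 20302180 to 20332713), stood at 5.13 FPKM in the OX40L-TG-APC library and 2.13 FPKM in the WT-APC library. Its ratio was 2.40 (2.05 to 2.83), and its log2 change of 0.97 was the one nearest below the 2-fold line. Slc1a5, which encodes the glutamine carrier ASCT2, was lower by a little, at 74.6 FPKM in the OX40L-TG-APC library and 83.2 FPKM in the WT-APC library (ratio 0.897, 0.864 to 0.930). Slc38a2, a gene of another neutral amino acid carrier and a known ATF4 target, stood at 42.0 FPKM in the OX40L-TG-APC library and 42.2 FPKM in the WT-APC library, and its interval (0.958 to 1.03) included 1.

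Slc7a5 and Slc3a2 encode the light and the heavy chain of the leucine carrier LAT1, which activated T cells need. Slc7a5 stood at 32.3 FPKM in the OX40L-TG-APC library and 19.3 FPKM in the WT-APC library (ratio 1.67, 1.58 to 1.78). Slc3a2 stood at 46.4 FPKM in the OX40L-TG-APC library and 36.2 FPKM in the WT-APC library (ratio 1.28, 1.21 to 1.36), so that FPKM of the heavy chain were 1.44 times those of the light chain in the OX40L-TG-APC library and 1.88 times in the WT-APC library. Slc7a1, which encodes the arginine and lysine carrier CAT1, stood at 16.4 FPKM in the OX40L-TG-APC library and 14.9 FPKM in the WT-APC library, a ratio of 1.10 (1.04 to 1.15) that is close to the median of all genes. With the libraries' totals set equal its log2 change was -0.044.

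Of 10 further amino acid transporter genes 8 reached 1 FPKM, and 0 of these 8 had the higher FPKM in the OX40L-TG-APC library (background 68.3%). Their intervals lay below 1 in 5 (background 17.3%) and included 1 in the other 3. Their median log2 change was -0.21. Slc43a2, which encodes a leucine carrier of the LAT family, stood at 13.2 FPKM in the OX40L-TG-APC library and 19.1 FPKM in the WT-APC library (ratio 0.690, 0.655 to 0.726). Slc38a1, whose product resembles that of Slc38a2, stood at 33.8 FPKM in the OX40L-TG-APC library and 40.004 FPKM in the WT-APC library.

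The cytosolic tRNA synthetases, which charge each amino acid onto its tRNA, were mostly higher in the OX40L-TG-APC library, by factors that differed between enzymes by more than counting error. Of 17 genes, 16 had the higher FPKM in the OX40L-TG-APC library (background 68.3%), and 14 with the libraries' totals set equal (background 42.3%). A ratio of at least 1.2 was reached by 13 (background 31.3%), but none reached 2-fold (background 2.26%). The ratios ran from 0.900 to 1.55 with a median of 1.29, beside the median of 1.09 over all genes. Summed over the 17, FPKM were 1172 in the OX40L-TG-APC library and 924 in the WT-APC library. All 17 were well expressed, between 25.6 and 142 FPKM in the OX40L-TG-APC library and between 16.8 and 116 FPKM in the WT-APC library. Cars was the lowest and Kars the highest in both.

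Gars, the glycine enzyme, which serves cytosol and mitochondria (chromosome 6, 55038001 to 55079504), had the largest log2 change, 0.62. It stood at 110.5 FPKM in the OX40L-TG-APC library and 71.5 FPKM in the WT-APC library, a ratio of 1.55 (1.49 to 1.61). Cars, the cysteine enzyme, stood at 25.6 FPKM in the OX40L-TG-APC library and 16.8 FPKM in the WT-APC library (ratio 1.53, 1.42 to 1.64). The intervals of these 2 genes overlap. Sars, the serine enzyme, Mars, the methionine enzyme, and Nars, the asparagine enzyme, followed with ratios of 1.45, 1.43 and 1.38. The enzymes for valine (Vars), tyrosine (Yars), alanine (Aars), isoleucine (Iars), leucine (Lars), glutamate and proline (Eprs), lysine (Kars) and arginine (Rars) lay between 1.21 and 1.31. The printed locus of Aars also holds Exosc6.

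Tars (1.14), Qars (1.11) and Hars (1.10), the enzymes for threonine, glutamine and histidine, lay near the median of all genes. With the libraries' totals set equal, Qars and Hars stood at log2 changes of -0.032 and -0.041, and 14 of the 17 genes were then above 0, against 42.3% of all genes. Wars, the tryptophan enzyme, which interferon-gamma is known to induce, was the 1 synthetase that was lower on the deposited scale, at 32.7 FPKM in the OX40L-TG-APC library and 36.3 FPKM in the WT-APC library (ratio 0.900, 0.851 to 0.952). In mammals 7 of these 17 enzymes sit in a large multi-synthetase complex, a split made here after the values were seen. The 7 (Eprs, Iars, Kars, Lars, Mars, Qars and Rars) had a median ratio of 1.23 and the 10 free-standing ones 1.31, with overlapping ranges of 1.11 to 1.43 and 0.900 to 1.55.

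A further 6 genes complete the cytosolic set: those of the aspartate enzyme (Dars), both subunits of the phenylalanine enzyme (Farsa and Farsb), and the scaffold proteins Aimp1, Aimp2 and Eef1e1 of the complex. All 6 had the higher FPKM in the OX40L-TG-APC library (background 68.3%). Their median log2 change was 0.35, which rounds to the value of the 17 synthetases. Aimp2 stood highest in change, at 71.0 FPKM in the OX40L-TG-APC library and 45.8 FPKM in the WT-APC library, at a printed locus shared with Eif2ak1.

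The synthetases of mitochondria that have separate nuclear genes of their own lay nearer to the median of all genes. Of 17 such genes, 14 had the higher FPKM in the OX40L-TG-APC library (background 68.3%), but 1 had a ratio of at least 1.2 (background 31.3%), against 13 of the 17 cytosolic ones. Their median log2 change of 0.11 was that of all genes, and their ratios ran from 0.803 (Lars2) to 1.22 (Cars2). They were also less expressed, with a median of 9.47 FPKM in the OX40L-TG-APC library and 8.54 FPKM in the WT-APC library, where the cytosolic enzymes had medians of 65.2 FPKM in the OX40L-TG-APC library and 53.3 FPKM in the WT-APC library. With no replicate libraries, the difference between cytosolic and mitochondrial enzymes was not tested. Gars, which serves both compartments, is counted with the cytosolic enzymes in this comparison. The C/EBP-ATF element was in the promoters of 5 of 10 cytosolic synthetase genes with a promoter in the table and of 0 of 14 mitochondrial ones, against 4.51% of all genes. At that share, finding none in 14 genes does not set the mitochondrial enzymes apart.

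**Figure D3:**
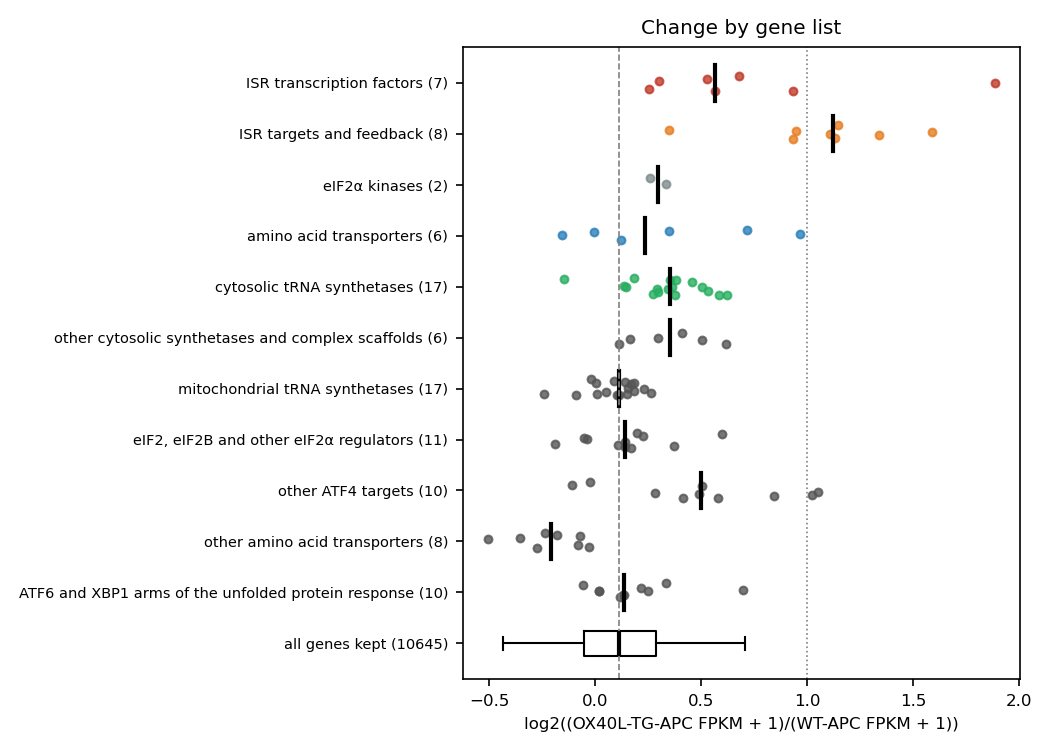
Log2 change of each gene, OX40L-TG-APC over WT-APC, by gene list, with the number of genes that reached 1 FPKM in brackets, 1 point per gene, black bars for list medians and a box for all genes (its quartiles, with whiskers from the 5th to the 95th percentile). The dashed line marks the median of all genes (0.11) and the dotted line 2-fold. The targets and feedback genes lie furthest right, the mitochondrial synthetases lie around the dashed line and the other amino acid transporters lie left of it.

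Of 17 other ATF4 targets listed, 14 were found and 10 reached 1 FPKM. Of these 10, 8 had the higher FPKM in the OX40L-TG-APC library (background 68.3%) and 2 were at least 2-fold higher (background 2.26%). These were Ddit4, which encodes the mTORC1 inhibitor REDD1 (227 FPKM in the OX40L-TG-APC library and 109 FPKM in the WT-APC library), and Pck2, a mitochondrial enzyme gene of the phosphoenolpyruvate pathway (12.4 FPKM in the OX40L-TG-APC library and 5.58 FPKM in the WT-APC library). The median log2 change of the 10 was 0.50, and 8 of them had a ratio of at least 1.2 (background 31.3%). Among those under 1 FPKM, Slc7a11 had the lower FPKM in the OX40L-TG-APC library and Slc6a9, Slc7a3 and Cth the higher. Phgdh, the entry enzyme of serine synthesis, stood at 29.5 FPKM in the OX40L-TG-APC library and 15.97 FPKM in the WT-APC library. The remaining 2 of the 10 had the lower FPKM there, and the intervals of both included 1. Xpot, the gene of a tRNA exporter, stood at 14.3 FPKM in the OX40L-TG-APC library and 14.6 FPKM in the WT-APC library. Jdp2, the gene of a repressor related to Atf3, stood at 2.04 FPKM in the OX40L-TG-APC library and 2.28 FPKM in the WT-APC library (ratio 0.896, 0.665 to 1.23).

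Genes of the other arms of the unfolded protein response, which the factors ATF6 and XBP1 drive, had a median log2 change of 0.13, beside 0.11 over all genes. Of the 10, 9 had the higher FPKM in the OX40L-TG-APC library (background 68.3%) and 6 had an interval above 1 (background 49.2%), but 2 had a ratio of at least 1.2 (background 31.3%). None was at least 2-fold higher or lower, which at a background of 2.26% and 1.32% says little about 10 genes. Hsp90b1, another chaperone gene, stood at 248 FPKM in the OX40L-TG-APC library and 196 FPKM in the WT-APC library (ratio 1.26, 1.23 to 1.29). Hspa5, the main chaperone of the endoplasmic reticulum, stood at 254 FPKM in the OX40L-TG-APC library and 251 FPKM in the WT-APC library. Its interval (0.991 to 1.03) included 1. Edem1, a gene of the disposal of misfolded proteins, had the largest change, at 62.1 FPKM in the OX40L-TG-APC library and 37.9 FPKM in the WT-APC library (ratio 1.64, 1.59 to 1.69).

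**Figure D4:**
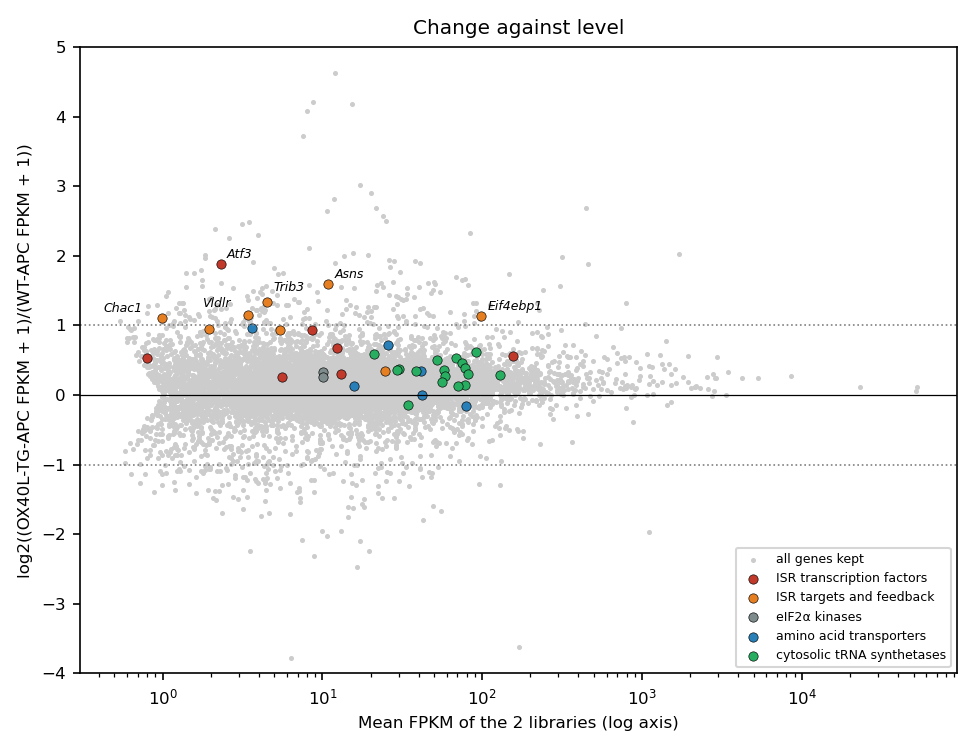
Log2 change, OX40L-TG-APC over WT-APC, against the mean FPKM of both libraries (log axis) for all 10645 genes (grey, 7 outside the plotted range) and the 40 members (coloured by subgroup). Dotted lines mark 2-fold, and the 6 labelled members lie above the upper one, Eif4ebp1 being the 1 at a high level.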

How the data were processed

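RNA from T cell cultures was sequenced as TruSeq libraries, 1 for each condition, per the labels' protocols. The authors deposited FPKM values per gene, and the submitters' processing notes name TopHat2, Cuffdiff and build mm9. Which versions, filters, gene models and strand settings were used is not given in the sources used here. The authors' deposited comparison table gives log2 ratios and p-values, per the file headers. Symbols came from RefSeq (GRCm38.p6), which held 13030 of the 13056 Entrez identifiers. Of these, 99.7% had a printed locus overlapping the GRCm38 gene, so the printed coordinates follow GRCm38. They are given with starts counted from 1.

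Genes needed at least 1 FPKM in a library, which left 10645. A gene counted as higher or lower at 2-fold on log2(FPKM + 1). With 1 library per condition no test, standard error or p-value was computed. Depth was estimated from 416 genes with 1 transcript over 1500 bases and values under 0.3 FPKM: at a step ratio of 0.873, 61.3% had whole-number fragment ratios within 0.2%, against a median of 2.16% over other ratios. Fragments used median GENCODE M21 transcript lengths less 150 bases, so intervals of short genes are rough. At that correction and the chosen depth, 32.9% of the 416 genes had small whole fragment numbers within 3%. On simulated data the depth ratio was recovered but the length correction was not, so fragment numbers are approximate. Python 3.11.15, pandas 2.3.3, NumPy 2.4.6 and SciPy 1.17.1 were used.

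Members, lists, alternatives and the rule for named genes were chosen with earlier results of these data known. The rule named Atf4, both kinases, every member at 2-fold, the highest and lowest of each subgroup, those next to the 2-fold line, and further-list genes at 2-fold. Other genes were named after their values were seen. The alternatives were pseudocounts of 0.1 and 5, no filter or one at 5 FPKM, 2 rescalings, and leaving out members with shared loci.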

Additional observations from a re-analysis of the deposited data

How the results depend on the processing

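Scaling moves every change. With the median ratio over well-expressed genes (1.09) set to 1, the median log2 change was 0.26 for all members, 0.47 for the transcription factors, 1.02 for the targets, 0.19 for the kinases, 0.12 for the transporters and 0.24 for the synthetases, and all genes had a median of 0.0033. With totals set equal these were 0.20, 0.45, 0.98, 0.13, 0.064 and 0.18, in the same order, with all genes at -0.050. Slc7a1, Hars and Qars then turned to -0.044, -0.041 and -0.032. The synthetase median lay between 0.23 and 0.27 above that of all genes in every alternative run. Members at least 2-fold higher numbered 11 with a pseudocount of 0.1 (background 3.80%) and 2 with 5 (background 0.949%). There were 3 with equal totals (background 1.59%), where 1 member fell under the filter. Of the 36 members that reached 5 FPKM, 4 were at least 2-fold higher (background 2.12%). With the median ratio set to 1 they were the same 6 as in the main run (background 1.82%). Dropping the filter or the 4 members at shared loci could not change these 6. All 40 members passed the filter, and none of the 6 is at a shared locus. No member was at least 2-fold lower in any alternative run. A pseudocount of 0.1 put the medians of the transcription factors and targets at 0.73 and 1.45, and one of 5 put the targets at 0.57. These follow from the levels, as low genes shrink with the pseudocount. Counting error limits Atf3, Chac1 and Nupr1, with about 19, 10 and 8 fragments in the WT-APC library. No paired analysis was possible because each condition has 1 library.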

Other observations

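Of the ATF4 targets found, 4 stayed under 1 FPKM in both libraries, 3 of them carrier genes. Slc7a11, the cystine carrier gene, stood at 0.172 FPKM in the OX40L-TG-APC library and 0.335 FPKM in the WT-APC library. Slc6a9, a glycine carrier gene, stood at 0.650 FPKM in the OX40L-TG-APC library and 0.315 FPKM in the WT-APC library. Slc7a3, an arginine and lysine carrier gene, stood at 0.571 FPKM in the OX40L-TG-APC library and 0.230 FPKM in the WT-APC library, a ratio of 2.48 from about 36 fragments in the OX40L-TG-APC library and 13 in the WT-APC library. Cth, a cysteine synthesis gene, stood at 0.973 FPKM in the OX40L-TG-APC library and 0.931 FPKM in the WT-APC library. Among the other regulators of eIF2α, Eif2ak2, the gene of the kinase PKR, stood at 8.58 FPKM in the OX40L-TG-APC library and 6.41 FPKM in the WT-APC library. Eif2ak1, the gene of the heme-regulated kinase, stood at 23.8 FPKM in the OX40L-TG-APC library and 27.3 FPKM in the WT-APC library. Ppp1r15b, the constitutive counterpart of Ppp1r15a, stood at 34.0 FPKM in the OX40L-TG-APC library and 35.3 FPKM in the WT-APC library. The cause of these values was not tested.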
